A study of Mus musculus with 6 samples.

Results

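The Vmn1r genes encode the V1R receptors, a family of G protein-coupled receptors that are best known from the vomeronasal organ. Here they were followed in the olfactory mucosa, the tissue in which odorant receptors (ORs) are the main receptor genes. The members were all genes whose name in the quantification files begins with Vmn1r. There were 211 of them among 24661 genes, each with 1 transcript model in the files. RNA-seq libraries had been made from the olfactory epithelium of 6 C57BL/6 mice at postnatal day 21, 3 wild-type and 3 RTP1,2DKO. RTP1,2DKO mice lack receptor transporting proteins 1 and 2 in all tissues: the coding region of Rtp1 is replaced by a loxP site and that of Rtp2 by a puromycin resistance (Pac) cassette. The targeted embryonic stem cells were a 129/B6 hybrid line, and the wild-type mice were sex-matched littermates of the mutants. The study's methods describe the dissected material as whole mucosa, that is the epithelium with the tissues around it. Whether any vomeronasal tissue was in the dissection is not given in the sources used here.

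V1Rs sit in the dendritic tips of vomeronasal sensory neurons of the apical layer, where most of these neurons express a single V1R gene or a few close relatives. They signal through the G protein alpha subunit Gnai2 and the cation channel Trpc2, and many of their known ligands are steroids and other small molecules from the urine and glands of other animals. V2Rs, the Vmn2r genes, are the receptors of the basal vomeronasal layer and signal through Gnao1. The main olfactory epithelium uses ORs, the Olfr genes, and a small group of trace amine-associated receptors, the Taar genes, and its neurons depend on RTP1 and RTP2 to bring many ORs to the cell surface.

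The targeted genes matched the labels. Rtp1 had 12283 to 26518 estimated counts in the wild-type mice and 86 to 111 in the RTP1,2DKO mice. Rtp2 had 6491 to 9968 and 30 to 55. Total estimated counts per library ranged from 31125410 to 41636996. Markers of the main epithelium were abundant in every mouse. Omp, the marker protein of mature olfactory sensory neurons (OSNs), had 60014.0 to 67307.7 normalized counts in wild-type mice and 27621.7 to 39604.6 in RTP1,2DKO mice, where normalized means divided by a size factor per library. Of 8 genes listed for mature OSNs, 7 fell and none rose in RTP1,2DKO mice (edgeR quasi-likelihood test, adjusted p under 0.05 over all 22152 genes fitted), and of 4 genes listed for immature OSNs 2 rose, Gng8 and Gap43. Gap43 had an adjusted p of 0.0418 in edgeR, which became 0.0509 with edgeR's filter on low counts and up to 0.1712 without single mice. In bulk tissue, fewer cells of a type and less RNA per cell cannot be told apart.

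Many V1R genes are recent copies of each other, and reads from copies cannot always be assigned. The coding sequence, or in some cases the whole transcript, of each of 209 members found in GENCODE M21 (GRCm38, the same assembly as the mm10 used by the authors) was split into words of 31 bases and every word was looked up in all other transcripts. On the median, 57.8% of a member's words were its own. For 28 members no word was unique, and for 12 all were. The member with the highest level, Vmn1r58, had 39.1% of its coding words to itself and shared 44.6% with Vmn1r62. The 2 coding parts were 97.2% identical over the first 720 bases, with a longest identical run of 148 bases. The model of Vmn1r58 in the files is longer than its coding part, and the words of its other bases were not examined. The following lines show bases 241 to 360 of both coding parts, counted from the A of the start codon. None of the 120-base stretches examined within the first 720 bases held more differences. Capitals mark the 10 bases that differ. Vmn1r58 lies here on the minus strand at chr7:5410870-5410989 and Vmn1r62 on the plus strand at chr7:5675562-5675681.
Vmn1r58: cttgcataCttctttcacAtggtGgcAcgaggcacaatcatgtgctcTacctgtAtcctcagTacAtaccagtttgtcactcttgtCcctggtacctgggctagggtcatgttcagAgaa
Vmn1r62: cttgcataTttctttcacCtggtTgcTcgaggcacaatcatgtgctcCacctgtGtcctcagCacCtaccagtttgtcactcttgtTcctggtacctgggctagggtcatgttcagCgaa

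A closer pair was Vmn1r27 and Vmn1r20 on chromosome 6, which differed at 23 of 912 coding bases (97.5% identical) and shared 57.3% of their words. Of these differences 13 lay within the first 720 bases. Bases 61 to 180 are shown because none of the 120-base stretches examined there held more differences. The later bases were not searched for a stretch. Capitals mark the 5 positions that differ. Vmn1r27 lies at chr6:58215838-58215957 on the minus strand and Vmn1r20 at chr6:57431751-57431870 on the plus strand.
Vmn1r27: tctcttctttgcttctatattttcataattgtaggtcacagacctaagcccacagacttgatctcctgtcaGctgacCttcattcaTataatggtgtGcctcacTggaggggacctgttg
Vmn1r20: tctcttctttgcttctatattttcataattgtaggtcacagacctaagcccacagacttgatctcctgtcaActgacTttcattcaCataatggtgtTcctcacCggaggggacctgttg
The 5 differing bases all fell in the later part of this stretch.

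The second most abundant member, Vmn1r89, stood further from its closest relative. It was 90.7% identical to Vmn1r86 over 951 bases and kept 80.8% of its words to itself. Bases 421 to 540 of both genes are shown as the contrast to the pairs above, with the 21 differing bases in capitals. The stretch lies at chr7:13219759-13219878 on the plus strand for Vmn1r89 and at chr7:13102408-13102527 on the minus strand for Vmn1r86.
Vmn1r89: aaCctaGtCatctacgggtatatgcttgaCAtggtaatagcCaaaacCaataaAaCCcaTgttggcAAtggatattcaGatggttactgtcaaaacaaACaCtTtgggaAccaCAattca
Vmn1r86: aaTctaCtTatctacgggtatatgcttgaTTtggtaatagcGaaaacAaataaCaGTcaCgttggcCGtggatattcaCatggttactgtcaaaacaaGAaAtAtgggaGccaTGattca
At the other end, Vmn1r132 and Vmn1r139 on chromosome 7 had the same 894 coding bases, so a read from the coding part of either could not be placed. The model of Vmn1r132 in the files has 2403 bases and extends past the coding part.

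V1R RNA was found in every mouse at a low level. With detection set at 3 estimated counts, the upper limit that a count of 0 allows, 113, 115 and 94 of the 211 members were detected in the wild-type mice and 107, 121 and 110 in the RTP1,2DKO mice. The groups overlapped. In a single library 3 counts equal 0.0721 to 0.0964 counts per 1000000, and this limit covers counting error only. In all, 164 members were detected in some mouse and 52 in all 6. Another 47 stayed under 3 counts everywhere, and 17 of these were at 0 in all 6 mice. The members just inside the limit of 3 counts in every mouse were Vmn1r207-ps, Vmn1r227, Vmn1r229, Vmn1r233, Vmn1r67 and Vmn1r70, each with a lowest value of 3.0, and those just outside it were Vmn1r185 at 2.3 and Vmn1r193 and Vmn1r199 at 2.1.

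**Figure D1:**
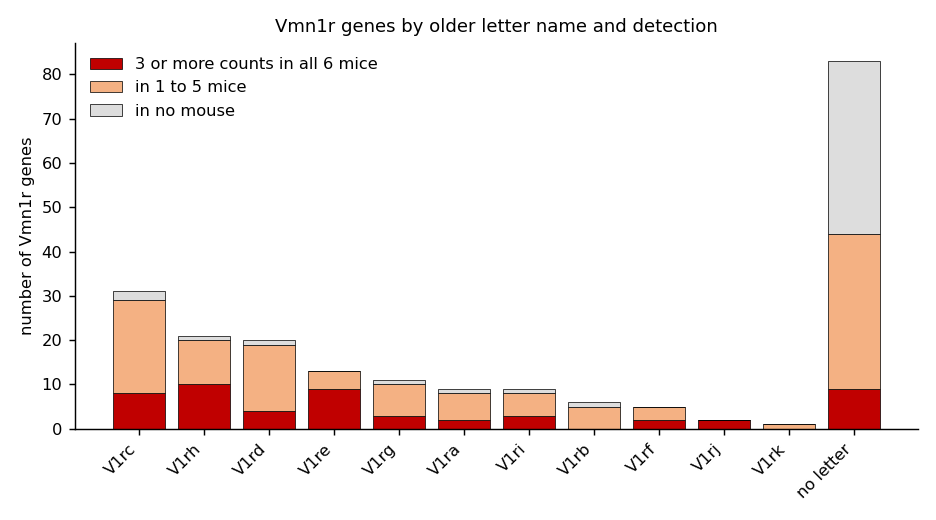
Number of Vmn1r genes by the letter of their older name in RefSeq (x axis), stacked by the number of mice with at least 3 estimated counts. Of the 13 V1re genes 9 were detected in all 6 mice, against 9 of the 83 genes without a letter name.

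Detection was spread over the family. RefSeq lists older names with a letter for 128 members, and these letters were given to groups of related sequence. Some older names are listed for several members, so some letters are uncertain. V1rd2 is listed for Vmn1r62 and Vmn1r70, V1re5 for Vmn1r225 and Vmn1r231, and V1ra1 for Vmn1r42 and Vmn1r51. Of these, Vmn1r70 shared at most 2.7% of its words with any other gene. Members detected in all 6 mice included 10 of the 21 V1rh genes, 9 of the 13 V1re genes, 8 of the 31 V1rc genes and 4 of the 20 V1rd genes. The V1rj pair, Vmn1r89 and Vmn1r85, was detected in all mice. None of the 6 V1rb genes was, nor Vmn1r87, the single V1rk gene. Among the V1re genes these were Vmn1r228, Vmn1r226, Vmn1r71, Vmn1r230, Vmn1r229, Vmn1r227, Vmn1r67, Vmn1r66 and Vmn1r69, at a mean of 0.21 to 2.13 TPM, a length-scaled share of all transcripts (transcripts per 1000000). The V1rh genes were Vmn1r220, Vmn1r217, Vmn1r196, Vmn1r210, Vmn1r206, Vmn1r189, Vmn1r208, Vmn1r197, Vmn1r219 and Vmn1r213, at 0.63 to 5.03 TPM. The V1rc genes were Vmn1r27, Vmn1r33, Vmn1r37, Vmn1r28, Vmn1r21, Vmn1r18, Vmn1r35 and Vmn1r32, at 0.95 to 4.10 TPM. The V1rd genes were Vmn1r58, Vmn1r70, Vmn1r148 and Vmn1r65, of which Vmn1r58 was highest at 12 TPM and Vmn1r65 lowest at 0.35 TPM.

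The remaining members found in all mice came from smaller groups. They were Vmn1r73, Vmn1r84 and Vmn1r80 of the V1rg genes, Vmn1r218, Vmn1r192 and Vmn1r198 of the V1ri genes, Vmn1r235 and Vmn1r233 of the V1rf genes, and Vmn1r51 and Vmn1r45 of the V1ra genes. Another 9 had no letter name, Vmn1r90, Vmn1r184, Vmn1r39, Vmn1r68, Vmn1r176, Vmn1r86, Vmn1r224, Vmn1r207-ps and Vmn1r-ps79. The GENCODE transcript of Vmn1r-ps79 has no word of its own, but the quantified model is longer, with 2293 bases, and its other words were not examined.

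Detection went with how much of a gene's sequence was its own. Of the 50 members with at least 80% unique words 20 were detected in all mice (40.0%), of the 103 members between 20% and 80% there were 27 (26.2%), and of the 56 members under 20% there were 5 (8.9%). In the last group 35 members stayed under 3 counts in every mouse. The groups also differed in place and name. The 83 members without a letter name had a median of 9.4% unique words. The quantifier shares reads between copies, so the level of a member with few unique words is an estimate that depends on its copies.

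By chromosome, 106 members lie on chromosome 7, 51 on chromosome 6, 36 on chromosome 13 and 14 on chromosome 17, with 2 on chromosome 4 and 1 each on chromosomes 1 and 18. Detected in all mice were 19 of the 106 members on chromosome 7, 11 of the 51 on chromosome 6, 14 of the 36 on chromosome 13 and 8 of the 14 on chromosome 17. The median share of unique words was 22.0% on chromosome 7 and 100% on chromosome 17. Chromosome 7 still carried 57.2% of all V1R counts with Vmn1r58 and Vmn1r89 among its members. None of the 4 members on chromosomes 1, 4 and 18 was detected in all mice.

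Per transcript length, V1R genes stood below the other receptor families of the same libraries. The median V1R gene had a mean of 0.282 TPM over the 6 mice. The median was 0.488 TPM for the 127 Vmn2r genes, 3.24 TPM for the 15 Taar genes and 2.227 TPM for the 1086 intact Olfr genes, that is those not named or annotated as pseudogenes. The median intact Olfr gene was thus at 7.90 times the median V1R gene. This ratio, and the ranks among intact Olfr genes given below, pool both genotypes. In single wild-type mice the median was 0.104 to 0.302 TPM for V1R and 2.067 to 3.744 TPM for intact Olfr genes. In single RTP1,2DKO mice it was 0.175 to 0.207 TPM and 0.815 to 1.288 TPM, so the distance was smaller there. At least 1 TPM was reached by 34 V1R genes (16.1%), 38 Vmn2r genes (29.9%), 11 Taar genes (73.3%) and 831 intact Olfr genes (76.5%). At least 3 counts in all 6 mice were reached by 24.6% of V1R genes and 84.9% of intact Olfr genes. These are descriptions of different genes and no test was made over genes.

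**Figure D2:**
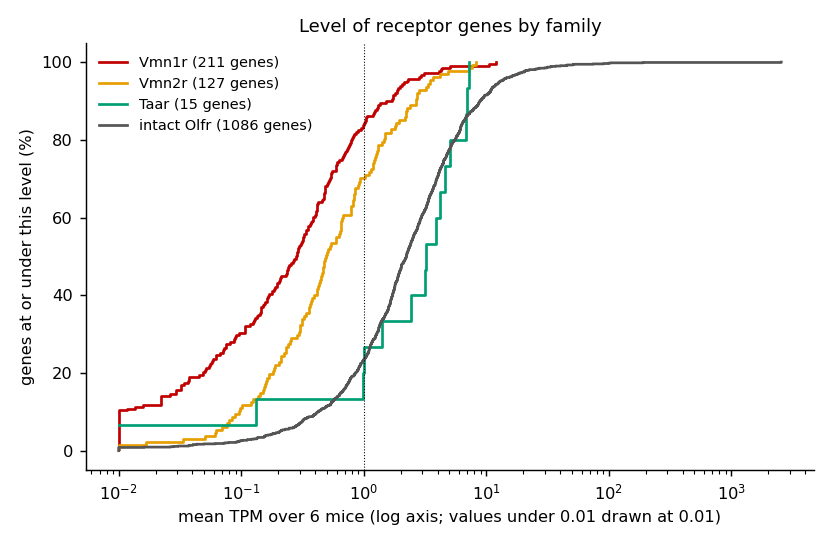
Cumulative share of genes (y axis, percent) at or under a mean TPM over the 6 mice (x axis, log scale) for Vmn1r, Vmn2r, Taar and intact Olfr genes. The Vmn1r curve lies to the left, with 16.1% of its genes at 1 TPM (dotted line) or more against 76.5% of intact Olfr genes.

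The ranges of the families overlapped, and 11 V1R genes (5.2%) lay above the median intact Olfr gene. The gene models differ between the families. The median V1R model has 924 bases, and 195 of the 211 lengths are multiples of 3, which models without untranslated regions have, while the median intact Olfr model, extended by the authors, has 2478 bases. TPM divides by an effective length that was 0.399 of the full length for the median V1R gene and 0.776 for the median intact Olfr gene. With the full length in its place the ratio of the medians was 8.78 and 12 V1R genes lay above the median intact Olfr gene. Reads from untranslated parts that a short model leaves out are not counted for that gene. The 25 members with models over 1100 bases held 52.2% of V1R counts.

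A few members held most of the V1R reads. Vmn1r58 alone had 30.2% of the mean V1R count, the first 10 members by count had 53.9%, the first 50 had 82.2%, and 77 members were needed for 90%. Counts rise with the length of the model. By TPM, which divides by length, Vmn1r58 had 8.9% of the family mean and the first 12 members had 41.2%. Vmn1r58, formerly V1rd4, lies at chr7:5401681-5413396 on the minus strand with 2 exons in GENCODE, its coding part in 1 of them, and a model of 2683 bases in the files. It had 903.5, 629.9 and 905.5 normalized counts in the 3 wild-type mice and 1050.6, 823.3 and 920.2 in the 3 RTP1,2DKO mice. The groups overlapped, and the lowest value was a wild-type mouse. At 12 ± 2.66 TPM (SD, n = 6) it was above 94.2% of intact Olfr genes. Its closest relative by shared words, Vmn1r62, had 0.0 to 13.7 normalized counts in the 6 mice.

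Vmn1r89, formerly V1rj2, was the only other member above 6 TPM. It lies at chr7:13213020-13220657 on the plus strand. It had 124.5, 132.6 and 150.5 normalized counts in wild-type mice and 96.0, 130.8 and 242.5 in RTP1,2DKO mice, where 1 mouse was above and another below all wild-type mice. At 10.5 ± 2.48 TPM (SD, n = 6) it was within the spread of Vmn1r58, which was 1.14 times as high on this scale. By full length Vmn1r58 was 2.14 times as high, so the distance between the leading members depends on the length used.

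The next members lay between 2 and 5.1 TPM. Vmn1r220, at chr13:23178514-23187975 on the minus strand, had 55.2, 78.4 and 35.4 normalized counts in wild-type mice and 34.1, 66.8 and 78.7 in RTP1,2DKO mice, with a mean of 5.03 TPM. Vmn1r217, in the same gene cluster at chr13:23105100-23118226 and on the same strand, had 63.9, 34.9 and 44.4 and then 26.3, 74.2 and 62.0, with a mean of 4.28 TPM. Both belong to the V1rh genes, and the values of both spread widely within each genotype. Exons of Vmn1r217 overlap Vmn1r216 on the other strand. The libraries are stranded, but whether kallisto used the strand is not given in the sources used here, so counts of members with a gene on the other strand may include its reads.

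Vmn1r90, at chr7:14555474-14563506, had 55.1, 43.5 and 70.9 normalized counts in wild-type mice and 59.4, 60.0 and 48.1 in RTP1,2DKO mice. Its value is uncertain, since it overlaps the pseudogene Nlrp5-ps on the same strand and shares 86.9% of its coding words with it. Nlrp5-ps itself had 19.8 to 56.9 normalized counts. Summed over both genes the counts were 87.2 ± 16.3 in wild-type and 106.9 ± 13.8 in RTP1,2DKO mice (SD, n = 3), and the groups overlapped.

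Vmn1r27, at chr6:58213091-58218821, had 57.6, 63.9 and 41.9 normalized counts in wild-type mice and 30.6, 42.2 and 56.8 in RTP1,2DKO mice. With its near copy Vmn1r20, which ranged from 0.0 to 21.2, the sum was 57.7 ± 13.8 and 51.7 ± 15 (SD, n = 3). Vmn1r37, with 11.9% unique words, had 22.2 to 38.5 normalized counts over the 6 mice, while Vmn1r36, with which it shares 77.1% of its words, ranged from 0.0 to 27.3. Vmn1r20 and Vmn1r36 thus both switched between 0 and over 20 normalized counts from mouse to mouse.

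The other members of the 12 include a pair with only unique words. Vmn1r228, formerly V1re3, at chr17:20774984-20786157 on the minus strand, is the first. It had 59.0, 49.6 and 55.1 normalized counts in wild-type mice and 54.8, 94.2 and 83.3 in RTP1,2DKO mice. A pair of RTP1,2DKO mice exceeded every wild-type mouse and the other lay among them. Vmn1r85, formerly V1rj3, at chr7:13083313-13095173, is the other and had 14.5, 11.4 and 48.5 normalized counts in wild-type mice and 37.9, 27.0 and 43.1 in RTP1,2DKO mice. The highest wild-type mouse decided its fold change, which was 0.54 on the log2 scale with all mice and 1.47 without wild-type mouse 3, not called either way. Its exons overlap Gm4270 on the other strand.

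The remaining 3 of the 12 highest members were Vmn1r33, Vmn1r184 and Vmn1r196, between 2.84 and 3.12 TPM. Vmn1r33 ranged from 15.5 to 41.5 normalized counts in wild-type and from 26.3 to 66.4 in RTP1,2DKO mice. Vmn1r184 ranged from 33.1 to 40.3 and from 30.0 to 64.4, and Vmn1r196 from 31.5 to 38.1 and from 26.1 to 40.6. The genotypes overlapped for each of the 12 members.

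**Figure D3:**
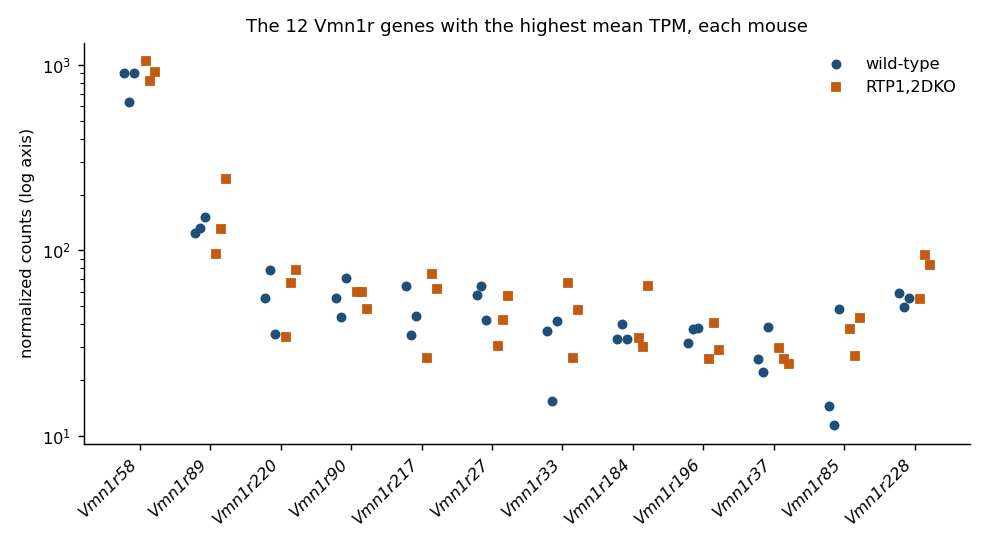
Normalized counts (y axis, log scale) in each wild-type mouse (blue circles) and each RTP1,2DKO mouse (orange squares) for the 12 Vmn1r genes with the highest mean TPM, in that order. Vmn1r58 lies between 629.9 and 1050.6, and the groups overlap for all 12 genes.

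The comparison by genotype asked whether V1R RNA differed in mice without RTP1 and RTP2, and the family sum did not differ beyond the spread between mice. The 211 members together had 2886.9, 2704.1 and 2851.0 normalized counts in wild-type mice and 2786.8, 2810.1 and 3168.6 in RTP1,2DKO mice. The means were 2814.0 ± 96.9 and 2921.8 ± 214.1 (SD, n = 3), a log2 ratio of 0.05 for RTP1,2DKO over wild-type, and the groups overlapped. Without Vmn1r58 the sums were 2001.1 ± 66.1 and 1990.5 ± 256.2, a log2 ratio of -0.01. As a share of all counts the family made up 0.00811% ± 0.00048 in wild-type and 0.00822% ± 0.00042 in RTP1,2DKO mice. A permutation test of 3 against 3 mice cannot go below an exact p of 0.1, so none is given for a sum.

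The sum of deposited TPM gave another direction. It was 162.2, 169.7 and 107.5 in wild-type mice and 133.4, 117.7 and 121.5 in RTP1,2DKO mice, or 146.5 ± 34.0 against 124.2 ± 8.2 (SD, n = 3), a log2 ratio of -0.24. The wild-type mice spread over the whole range of the RTP1,2DKO mice and beyond. The effective lengths in the files were the same in all 6 libraries. On both scales the difference between the means was smaller than the SD of the more variable genotype.

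**Figure D4:**
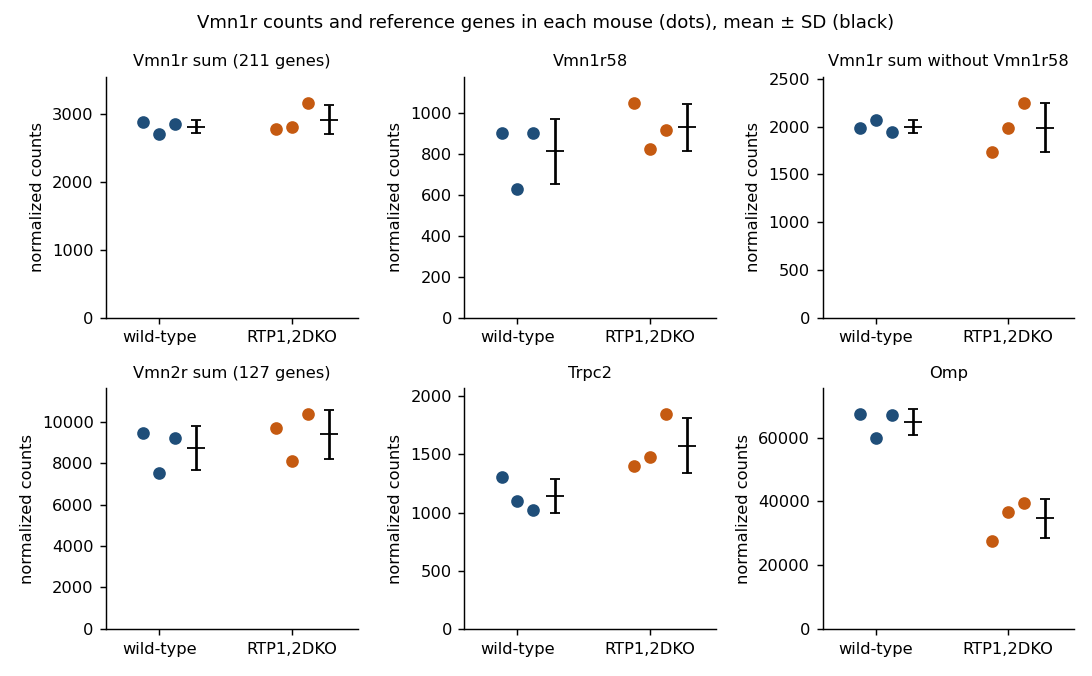
Normalized counts (y axes, from 0) of the summed Vmn1r genes, Vmn1r58, the other Vmn1r genes, the summed Vmn2r genes, Trpc2 and Omp in each mouse (dots) with the mean and SD of the 3 mice (black). The Vmn1r sums of the genotypes overlap (2704.1 to 2886.9 and 2786.8 to 3168.6), while for Omp every RTP1,2DKO mouse is under, and for Trpc2 over, the wild-type range.

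The V1R share of receptor reads was slightly higher in RTP1,2DKO mice by counts. V1R genes held 0.830%, 0.708% and 0.851% of the counts on 1601 Olfr, Taar, Vmn1r and Vmn2r genes in wild-type mice and 0.855%, 0.997% and 0.965% in RTP1,2DKO mice. The widest Wilson 95% interval ran from 0.963% to 1.032%, around the share of 0.997%. All RTP1,2DKO mice were above all wild-type mice, but the intervals of the closest pair overlapped. The means were 0.796% ± 0.077 and 0.939% ± 0.075 (SD, n = 3). By TPM the share was 1.62% ± 0.119 and 1.88% ± 0.16, and the groups overlapped. Over the same mice the Olfr sum was 342774.8 ± 25303.9 normalized counts in wild-type and 298666.9 ± 25061.3 in RTP1,2DKO mice, a log2 ratio of -0.20 with no overlap. The Vmn2r sum was 8745.4 ± 1059.0 and 9390.1 ± 1164.1, a log2 ratio of 0.10, with overlap. The Taar sum was 637.7 ± 105.4 and 1120.7 ± 54.3, a log2 ratio of 0.81, with no overlap. By TPM the log2 ratios were -0.47 for the Olfr, -0.13 for the Vmn2r and 0.54 for the Taar sum, and the groups overlapped for each.

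The fit over all genes called no V1R gene. Of the 211 members 191 had at least 1 rounded count in some mouse and were fitted, and none passed an adjusted p of 0.05 in edgeR's quasi-likelihood test, while 3.61% of all 22152 genes did. DESeq2 also called none. At an unadjusted p under 0.05 there were 4 members (2.09%) in edgeR and 3 in DESeq2, and 11.8% of all genes in edgeR. The lowest adjusted p of a member was 0.2455 in edgeR. Fold changes were positive for 97 and negative for 94 fitted members, with a median log2 fold change of 0.03, against 0.02 for all genes and -1.08 for the 1078 fitted intact Olfr genes. Groups did not overlap for 17 fitted members (8.9%), 8 higher and 9 lower in RTP1,2DKO mice. This was so for 16.4% of all genes fitted and for 64.0% of the intact Olfr genes fitted.

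Depth limits what the test could show for single V1R genes. Of the 211 members 52 had a mean of at least 10 counts. Of these 29 had a positive and 23 a negative log2 fold change, between -1.27 and 2.21, with a median of 0.08. The standard error of the log2 fold change had a median of 0.71 in the 25 members with a mean of 10 to 20 counts, 0.49 in the 16 with 20 to 50, and 0.31 in the 11 with 50 or more. For Vmn1r58, the deepest, the log2 fold change was 0.20 with a standard error of 0.16 (edgeR adjusted p = 0.7514). Even the members at -1.27 and 2.21 were not called. Differences of 2-fold, and some larger ones, could therefore go undetected at this depth for most members. Intact Olfr genes in the same range of counts are given for scale. Of the 387 intact Olfr genes with a mean between 10 and 85.4 counts, the 95th percentile of the 52 members, 147 (38.0%) were called, with a median log2 fold change of -1.42.

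**Figure D5:**
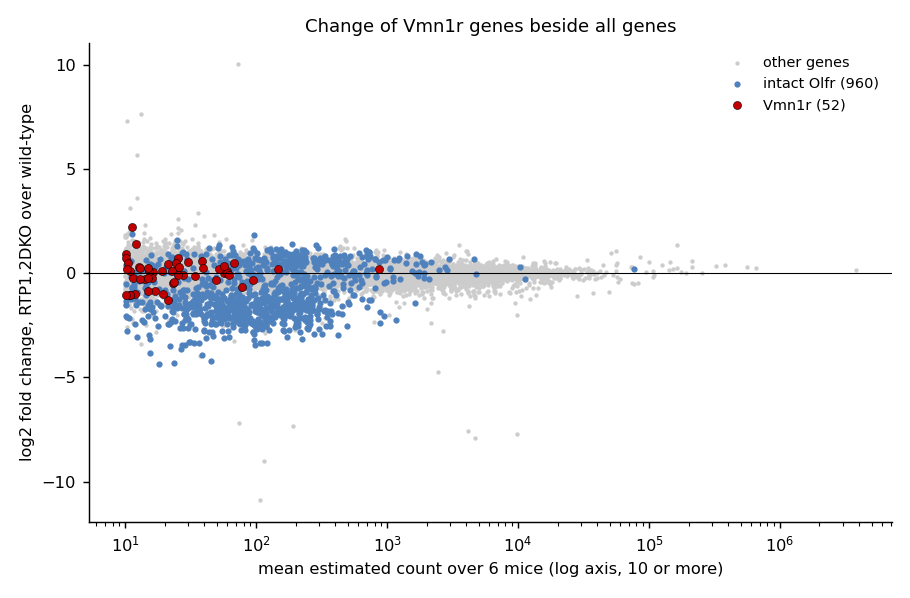
Log2 fold change of RTP1,2DKO over wild-type (y axis) against the mean estimated count over 6 mice (x axis, log scale) for genes averaging 10 counts or more. The 52 Vmn1r genes (red) lie around 0, with a median of 0.08, while the 960 intact Olfr genes (blue) have a median of -1.13.

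Besides the 12 highest members, those with an unadjusted p under 0.05 were examined. Vmn1r189, a V1rh gene with 35.8% unique words, had 28.4, 39.5 and 21.6 normalized counts in wild-type mice and 12, 10 and 14.9 in RTP1,2DKO mice. All RTP1,2DKO mice were below all wild-type mice, and the log2 fold change was -1.27 with a standard error of 0.51 (edgeR adjusted p = 0.3102). Vmn1r132, which has no unique word in its coding part, had 7.7, 3.5 and 0.0 in wild-type mice and 18.2, 25.6 and 9.6 in RTP1,2DKO mice. Its log2 fold change was 2.21 with a standard error of 0.91 (edgeR adjusted p = 0.3373). Its groups did not overlap, but summed with its copy Vmn1r139 they did (0.0 to 13.1 and 11.4 to 34.6).

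Another 2 members had an unadjusted p under 0.05 and means of under 5 counts, and are named here after their values were seen. Vmn1r183 had 6.5, 3.2 and 4.4 normalized counts in wild-type mice and none in the RTP1,2DKO mice. It was the only member with 3 counts in all mice of one genotype and in none of the other. Vmn1r42 had none in wild-type mice and 1.1, 4.4 and 4.3 in RTP1,2DKO mice. Neither passed the test (edgeR adjusted p = 0.2455 and 0.3865), and the values of both are uncertain. Exons of Vmn1r183 overlap Gm36694 on the other strand, and 43.6% of its words were unique. Exons of Vmn1r42 overlap Vmn1r43 on the same strand, and 64.1% of its words were unique. In all, 12 members reached 3 counts only in wild-type mice and 20 only in RTP1,2DKO mice. The RTP1,2DKO libraries include both the deepest, with 41636996 counts, and the smallest, with 31125410. The same numbers were not taken over all genes, and a cause was not tested.

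Summed by letter, the V1R genes again lay close between the genotypes. The V1rd genes summed to 947.3 ± 132.9 normalized counts in wild-type and 1050.0 ± 117.7 in RTP1,2DKO mice, of which Vmn1r58 held 87.3%. The V1rh genes summed to 310.0 ± 29.7 and 308.7 ± 43.5, the V1rc genes to 329.8 ± 56.9 and 303.6 ± 35.9, and the V1re genes to 302.3 ± 20.7 and 310.7 ± 62.4 (SD, n = 3 throughout). The V1rf genes, led by Vmn1r235, had 119.7 ± 17.2 and 89.4 ± 32.9, a log2 ratio of -0.42. All these groups overlapped between genotypes. Only the single V1rk gene, Vmn1r87, did not, with 1.9 to 6.6 normalized counts in wild-type and 7.4 to 10.8 in RTP1,2DKO mice, and the fit did not call it.

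Genes through which V1Rs signal in vomeronasal neurons were read in the same libraries. Of the 10 listed genes 1 rose and 1 fell. Gng8, a G protein gamma subunit of immature OSNs and vomeronasal neurons, had 168.9 to 227.6 normalized counts in wild-type and 329.6 to 402.8 in RTP1,2DKO mice (log2 fold change 0.91, standard error 0.18, edgeR adjusted p = 0.0104). Ano2, the calcium-activated chloride channel that is also a main channel of mature OSNs, had 2666.0 to 4035.3 and 1343.5 to 1432.7 (log2 fold change -1.18, standard error 0.16, edgeR adjusted p = 0.000738). Trpc2, the V1R transduction channel, had 1304.4, 1099.1 and 1024.5 in wild-type mice and 1401.7, 1473.8 and 1844.3 in RTP1,2DKO mice. Every RTP1,2DKO mouse was above every wild-type mouse, but the log2 fold change of 0.46 with a standard error of 0.14 did not pass the test (edgeR adjusted p = 0.1221). Gnai2 and Kcnj3, a potassium channel, were also higher in each RTP1,2DKO mouse without passing, with log2 fold changes of 0.29 and 0.57. Gnb1, a G protein beta subunit of many cells, was lower in each RTP1,2DKO mouse, with a log2 fold change of -0.47 and an adjusted p of 0.0775 in edgeR and 0.0045 in DESeq2. In edgeR the adjusted p of Gnb1 was 0.0357 with the replicate number as a block, and without single mice it ran from 0.0489, without wild-type mouse 3, to 0.2484.

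Markers of vomeronasal neurons were present, some near the limit of detection. All 13 listed genes had counts, and none passed the test. Their summed level was 31431.7 to 32614.4 normalized counts in wild-type and 28027.5 to 28968.0 in RTP1,2DKO mice. Most of it lay on genes that the main epithelium also uses, such as Gnao1, Nrp2 and Kirrel2. Kirrel2 alone fell by about as much as the sum, from 6558.1 ± 3042.0 to 2869.0 ± 1511.0 (SD, n = 3), and its groups overlapped. The median log2 fold change of the 13 genes was 0.01. Tfap2e, the transcription factor of basal vomeronasal neurons, had 8.6 to 43.1 normalized counts over the 6 mice. Of the H2-M genes, class Ib MHC genes of V2R neurons, H2-M10.3 had 187.8 to 271.5, H2-M1 11.4 to 27.4 and H2-M9 1.1 to 12.7. Of 5 formyl peptide receptors, another vomeronasal family, 4 were in the files, at 50.8 to 74.6 normalized counts in sum in wild-type and 63.0 to 93.3 in RTP1,2DKO mice, and none was called. The lipocalins Lcn3 and Lcn4, secreted by nasal glands, were among the most abundant genes, with means of 17172 and 20197 TPM, and did not pass the test. None of 3 genes listed for sustentacular cells and none of 3 for respiratory ciliated cells was called. The part of any of these cells in the V1R counts was not tested.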

How the data were processed

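The authors quantified stranded Illumina reads from the olfactory mucosa of 6 mice with kallisto (version not given in the sources used here) against mm10 (GRCm38) UCSC transcripts with extended OR models. Per the file headers, each library holds a deposited estimated count and a deposited TPM for 38041 transcripts. Both were summed per gene. The members and gene lists were chosen with earlier results of these data known.

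Estimated counts were rounded, and 22152 genes whose rounded count reached 1 or more in any mouse were fitted with edgeR 4.0.16 (quasi-likelihood F-test, R 4.3.3) with DESeq2 1.42.0 size factors, checked on simulated data. P-values were adjusted by Benjamini-Hochberg over all genes at 0.05. Each genotype had 3 mice, each labelled as a separate sample. Named were the 12 members with the highest mean TPM, any member called, and up to 6 more with an unadjusted p under 0.05 and a mean of at least 5 counts. Copies and overlapping genes are uncertain, since kallisto divides shared reads by estimate. Positions are from GENCODE M21, older names from RefSeq. Alternatives were DESeq2's test, scaling by TMM, edgeR's low-count filter, unrounded counts, the replicate block, other detection limits, TPM and leaving out each mouse. Intervals and limits cover counting error only.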

Additional observations from a re-analysis of the deposited data

How the results depend on the processing

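No V1R gene was called under TMM normalization, edgeR's filter on low counts (53 members fitted), DESeq2's test, unrounded counts, the replicate block or without any single mouse, and 1 to 7 members had an unadjusted p under 0.05 in these fits. Mice with the same replicate number correlated at 0.090, 0.107 and 0.062 over genes, and mice with different numbers at -0.137 to 0.054. The labels do not say whether equal numbers mark littermates. The main fit took no pairs, and the replicate block was tried as an alternative. With the replicate block the family sum kept its log2 ratio of 0.05. Of the 23 single genes followed, the block changed the call only of Gnb1 (adjusted p = 0.0357). The family sum stayed between -0.01 and 0.09 when each mouse was left out, and turned to -0.24 with deposited TPM. Members detected in all mice numbered 83 at a limit of 1 count, 26 at 10 counts and 46 after thinning to the smallest library, and 54 to 61 when 1 mouse was left out. Log2 fold changes near 0 changed sign when single mice were left out: Vmn1r89 ranged from -0.26 to 0.46, Vmn1r220 from -0.15 to 0.41, Vmn1r90 from -0.17 to 0.18, Vmn1r217 from -0.12 to 0.51, Vmn1r184 from -0.17 to 0.47 and Vmn1r37 from -0.27 to 0.16. Vmn1r90 went from -0.01 to 0.00 with the replicate block. The cause was not tested.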

Other observations

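The files hold 3 V1R genes under older names that the choice by Vmn1r leaves out. V1ra8 had 2.4 and 8.0 estimated counts in 2 wild-type mice and 0.0 in the other mice. V1rd18 had 9.0 estimated counts in 1 wild-type mouse and 0.0 in the others. V1rd19 stayed at or under 3.1 estimated counts in all 6 mice. With these genes added, a choice made after the data were seen, the log2 ratio of the family sum was 0.05. Without the members whose exons overlap another gene, also chosen afterwards, it was 0.06.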
